A study of Mus musculus with 12 samples.

Results

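The genes examined here lie around Ifnar2 on mouse chromosome 16, the locus that was targeted in the Ifnar2-/- mice of the study. Members were all non-control probes whose position in the array files was chromosome 16, 84 to 96.5 Mb (megabases), leaving out the probes named Ifnar1, Ifnar2, Ifngr2 and Il10rb. That gave 208 probes for 136 genes, of 41174 probes for 27670 genes on the array. Of these, 132 probes for 79 genes were well above background on every array of at least 1 group and were tested, of 27715 probes for 18274 genes in all. Of the 132, 5 probes passed this filter through a single group, so their values against other groups are given without a test, although they stay in the counts. Positions are those of the array files, whose headers name the mouse build mm7, and every distance is the distance of a probe's middle from the middle of the nearest of 2 Ifnar2 probes. The nearest tested member lay 53 kb away.

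Total RNA of peritoneal exudate cells, the mixed cells flushed out of the abdominal cavity, was hybridised to 12 one-colour Agilent mouse arrays. The 4 groups of 3 arrays were Ifnar2-/- mice injected into the peritoneum with interferon beta (IFN-β, given as 10000 IU/ml with no volume), Ifnar2-/- mice injected with phosphate-buffered saline (PBS), wild-type mice injected with IFN-β and wild-type mice injected with PBS. Both genotypes were females aged 8 weeks of the strain 129S2/SvPas*BALB/c, and cells were taken 3 h after the injection. Different mice were used for each sample, per the series' design text, so the spread within a group includes the difference between animals. Which alleles of the segment the mice of either genotype carried was not analysed here.

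Ifnar2 encodes a chain of the cell-surface receptor that binds type I interferons, and its neighbours Ifnar1, Ifngr2 and Il10rb encode related receptor chains. A gene targeted in embryonic stem cells is passed on together with the chromosome segment around it, so genes linked to the targeted locus can keep the alleles of the stem cells' strain for many generations of breeding. Such linked genes are called passengers, and the comparison of Ifnar2-/- with wild-type cells along this segment asks whether their transcripts differ with the distance from Ifnar2. The segment also holds genes with other known roles, among them the blood transcription factor Runx1, the amyloid precursor App and the endocytic proteins Itsn1 and Synj1.

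Several of the genes had probes that behaved differently from each other, so 60-base probes of Eva1c, Runx1, Cryzl1, App, Itsn1 and the RIKEN transcript 6720475J19Rik are shown as the array files give them. Not shown are App A_52_P110982 and A_52_P381311, whose values are given below, and Itsn1 A_52_P843815. The capitals mark AATAAA, the letters of the common polyadenylation signal, which 1 of the probes shown holds in 2 overlapping copies.
Eva1c A_51_P166648 (chr16:90954472-90954531, + strand): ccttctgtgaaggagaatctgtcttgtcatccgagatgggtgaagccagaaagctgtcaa
Eva1c A_52_P6070 (chr16:90954222-90954281, + strand): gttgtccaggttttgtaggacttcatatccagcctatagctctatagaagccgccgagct
Eva1c A_52_P509853 (chr16:90877781-90877840, + strand): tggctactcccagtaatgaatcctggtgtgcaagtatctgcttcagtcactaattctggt
Runx1 A_51_P206585 (chr16:92658334-92658393, - strand): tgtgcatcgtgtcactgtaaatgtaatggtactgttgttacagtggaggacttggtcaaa
Runx1 A_52_P202358 (chr16:92667924-92698376, - strand): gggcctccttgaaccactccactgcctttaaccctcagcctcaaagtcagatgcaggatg
Cryzl1 A_52_P46986 (chr16:91744691-91744750, - strand): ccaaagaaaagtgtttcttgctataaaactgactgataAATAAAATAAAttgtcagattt
Cryzl1 A_51_P413193 (chr16:91740195-91740254, - strand): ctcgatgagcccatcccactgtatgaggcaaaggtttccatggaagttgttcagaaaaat
App A_51_P318104 (chr16:84954571-84954630, - strand): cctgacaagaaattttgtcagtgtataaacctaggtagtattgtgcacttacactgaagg
App A_52_P468472 (chr16:84962262-84965122, - strand): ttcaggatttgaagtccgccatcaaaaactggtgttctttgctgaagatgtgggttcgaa
6720475J19Rik A_51_P299393 (chr16:90399410-90399469, - strand): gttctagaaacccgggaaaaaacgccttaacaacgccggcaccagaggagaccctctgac
6720475J19Rik A_51_P299400 (chr16:90399181-90399240, - strand): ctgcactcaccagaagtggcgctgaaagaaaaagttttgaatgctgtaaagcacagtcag
Itsn1 A_51_P108645 (chr16:91959684-91962225, + strand): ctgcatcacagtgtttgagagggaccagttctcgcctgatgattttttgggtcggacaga
Itsn1 A_52_P438188 (chr16:91959185-91959599, + strand): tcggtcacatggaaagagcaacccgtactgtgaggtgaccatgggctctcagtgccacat
Itsn1 A_52_P342880 (chr16:91911547-91913623, + strand): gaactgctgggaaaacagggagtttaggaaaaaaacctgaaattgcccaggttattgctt
Itsn1 A_52_P396498 (chr16:91878224-91878283, + strand): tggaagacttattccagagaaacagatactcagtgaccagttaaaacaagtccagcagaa

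AATAAA as printed stood in 9 of 208 member probes (4.33%), against 4.78% of all probes of the array, and its complement TTTATT stood in 4.33%, against 4.25%. The letters were searched in the probes only, and a match is no evidence that the site is used. The positions of Runx1 A_52_P202358, App A_52_P468472 and Itsn1 A_51_P108645, A_52_P438188 and A_52_P342880 span more than the 60 bases of a probe. Where their letters lie within those intervals was not checked against a genome. The exon or intron that a probe lies in was not analysed here.

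Levels are log2 processed signals after subtraction of each array's own 75th percentile, so a level of 0 is a signal at that percentile, and every difference is on the log2 scale. Tests were limma's moderated tests, fitted to all kept probes over all 12 arrays, and a probe was called at a Benjamini-Hochberg adjusted p under 0.05. Between 59.4% and 71.6% of spots were well above background per array. The arrays lay on 3 slides, and the 4 on slide 3, all Ifnar2-/-, had 59.4% to 62.5%, against 65.2% to 71.6% on the others. No slide held both genotypes after PBS, so that comparison has no value within a slide. The targeted gene was lower in Ifnar2-/- cells on 1 of its probes, by -1.85 after PBS (SE 0.14, limma adjusted p = 5.47e-05), and higher on the other, by 0.96 (SE 0.18, limma adjusted p = 0.0149); the place of the deleted part relative to these probes was not analysed here. Macrophage markers summed to 694 to 983 in units of the 75th percentile over all arrays, and all 11 were measured. After PBS the macrophage marker Fcna was called higher in Ifnar2-/- cells (2.48), while the other 10 were not called and the list's median difference was 0.05. Of 8 mesothelial and stromal markers Lrrn4 was called lower (-2.47), 7 were not called and the median was -0.16. Monocyte markers summed to 184 to 191 in Ifnar2-/- PBS cells, against 212 to 236 in wild-type PBS cells, and T and NK cell markers to 5.45 to 9.01 in Ifnar2-/- PBS cells, against 4.69 to 5.11 in wild-type PBS cells, with 0 markers of either list called by limma (5 at an unadjusted p under 0.05). Mast cell markers summed to 303 to 364 in Ifnar2-/- PBS cells, against 200 to 281 in wild-type PBS cells, with Fcer1a and Kit called higher of 7. In such bulk RNA, more cells of a type and more RNA per cell cannot be told apart.

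After PBS, Ifnar2-/- cells differed from wild-type cells at 9 of the 132 member probes, 7 higher and 2 lower, in 7 genes. This was 6.82% of the members, beside 4.53% of all probes tested and 4.26% of the 799 probes on the rest of chromosome 16, so the share was near the background. Eva1c, a membrane protein whose worm counterpart acts in axon guidance, had the largest difference. Runx1, a transcription factor that blood stem cells need to form, was next. The other higher genes were Cryzl1, named for its likeness to quinone oxidoreductases, App, Itsn1, a scaffold of endocytosis, and the cDNA AK046687, while 6720475J19Rik was lower on both of its probes. The median size of the difference was 0.21 over the members, 0.22 over the rest of chromosome 16 and 0.22 over the whole array.

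Eva1c stood out on 2 of its 3 probes. On A_51_P166648, 0.49 Mb from Ifnar2, its level was -0.40, -0.42 and 0.29 in the Ifnar2-/- PBS samples, against -4.06, -3.56 and -3.75 in the wild-type PBS samples. All Ifnar2-/- values lay far above all wild-type values, a difference of 3.61 (SE 0.26, limma adjusted p = 3.13e-05), or 12.2-fold. On A_52_P6070, close by, the level was -2.08, -2.12 and -1.42 in Ifnar2-/- PBS cells, against -5.39, -5.08 and -5.09 in wild-type PBS cells, a difference of 3.31 (SE 0.27, limma adjusted p = 6.85e-05). These ranked 60 and 85 by size among the 27715 probes tested. The third probe, A_52_P509853, lies 0.57 Mb from Ifnar2 at a lower coordinate, and its groups overlapped: -3.04, -3.37 and -2.61 in Ifnar2-/- PBS cells, against -3.01, -2.94 and -4.07 in wild-type PBS cells (0.33, SE 0.33, limma adjusted p = 0.616).

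Runx1 was higher on the probe A_51_P206585, 1.20 Mb from Ifnar2, with levels of 0.02, -0.08 and -0.29 in Ifnar2-/- PBS cells, against -1.75, -1.78 and -1.77 in wild-type PBS cells. The groups did not overlap, and the difference was 1.65 (SE 0.14, limma adjusted p = 7.33e-05), or 3.14-fold. Its other kept probe, A_52_P202358, also had higher values in every Ifnar2-/- PBS sample but was not called (0.64, limma adjusted p = 0.184). Mast cells, whose marker sums are given above, are among the blood cells in which Runx1 is known to be expressed, and the part of cell composition in this difference was not tested.

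Cryzl1 was higher on A_52_P46986, the probe with the capitals above, at -4.91, -4.22 and -4.01 in Ifnar2-/- PBS cells, against -6.31, -5.69 and -5.74 in wild-type PBS cells. Its groups did not overlap (1.53, SE 0.32, limma adjusted p = 0.0233), while its second probe, A_51_P413193, was not called (0.21, limma adjusted p = 0.344). App, the precursor of amyloid-β peptides, was higher on 1 of 4 kept probes: A_51_P318104 read -3.11, -3.17 and -3.07 in Ifnar2-/- PBS cells, against -4.13, -4.11 and -4.26 in wild-type PBS cells (1.05, SE 0.17, limma adjusted p = 0.00587). The App probe A_52_P468472 read 5.0, 4.70 and 4.99 in Ifnar2-/- PBS cells, against 4.54, 5.02 and 4.62 in wild-type PBS cells, and those groups overlapped (0.17, limma adjusted p = 0.672). Of the remaining App probes, A_52_P110982 differed by 0.18 and A_52_P381311 by -0.43, and neither was called.

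The transcript 6720475J19Rik, 1.04 Mb from Ifnar2, was the gene called lower. Its probe A_51_P299393 read -2.76, -3.01 and -3.32 in Ifnar2-/- PBS cells, against -1.38, -1.73 and -2.02 in wild-type PBS cells (-1.32, SE 0.24, limma adjusted p = 0.0112). Its probe A_51_P299400 differed by -1.30 (SE 0.26, limma adjusted p = 0.0188), and neither probe's groups overlapped. Itsn1 was higher on A_51_P108645, at -4.13, -3.91 and -4.31 in Ifnar2-/- PBS cells, against -5.0, -5.06 and -5.24 in wild-type PBS cells (0.99, SE 0.22, limma adjusted p = 0.0327); its 3 other kept probes were not called, at 0.21 to 0.46. AK046687, 4.02 Mb away, passed the threshold narrowly (1.29, SE 0.32, limma adjusted p = 0.0493), and 2 of the 3 wild-type PBS arrays measured it well above background.

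**Figure D1:**
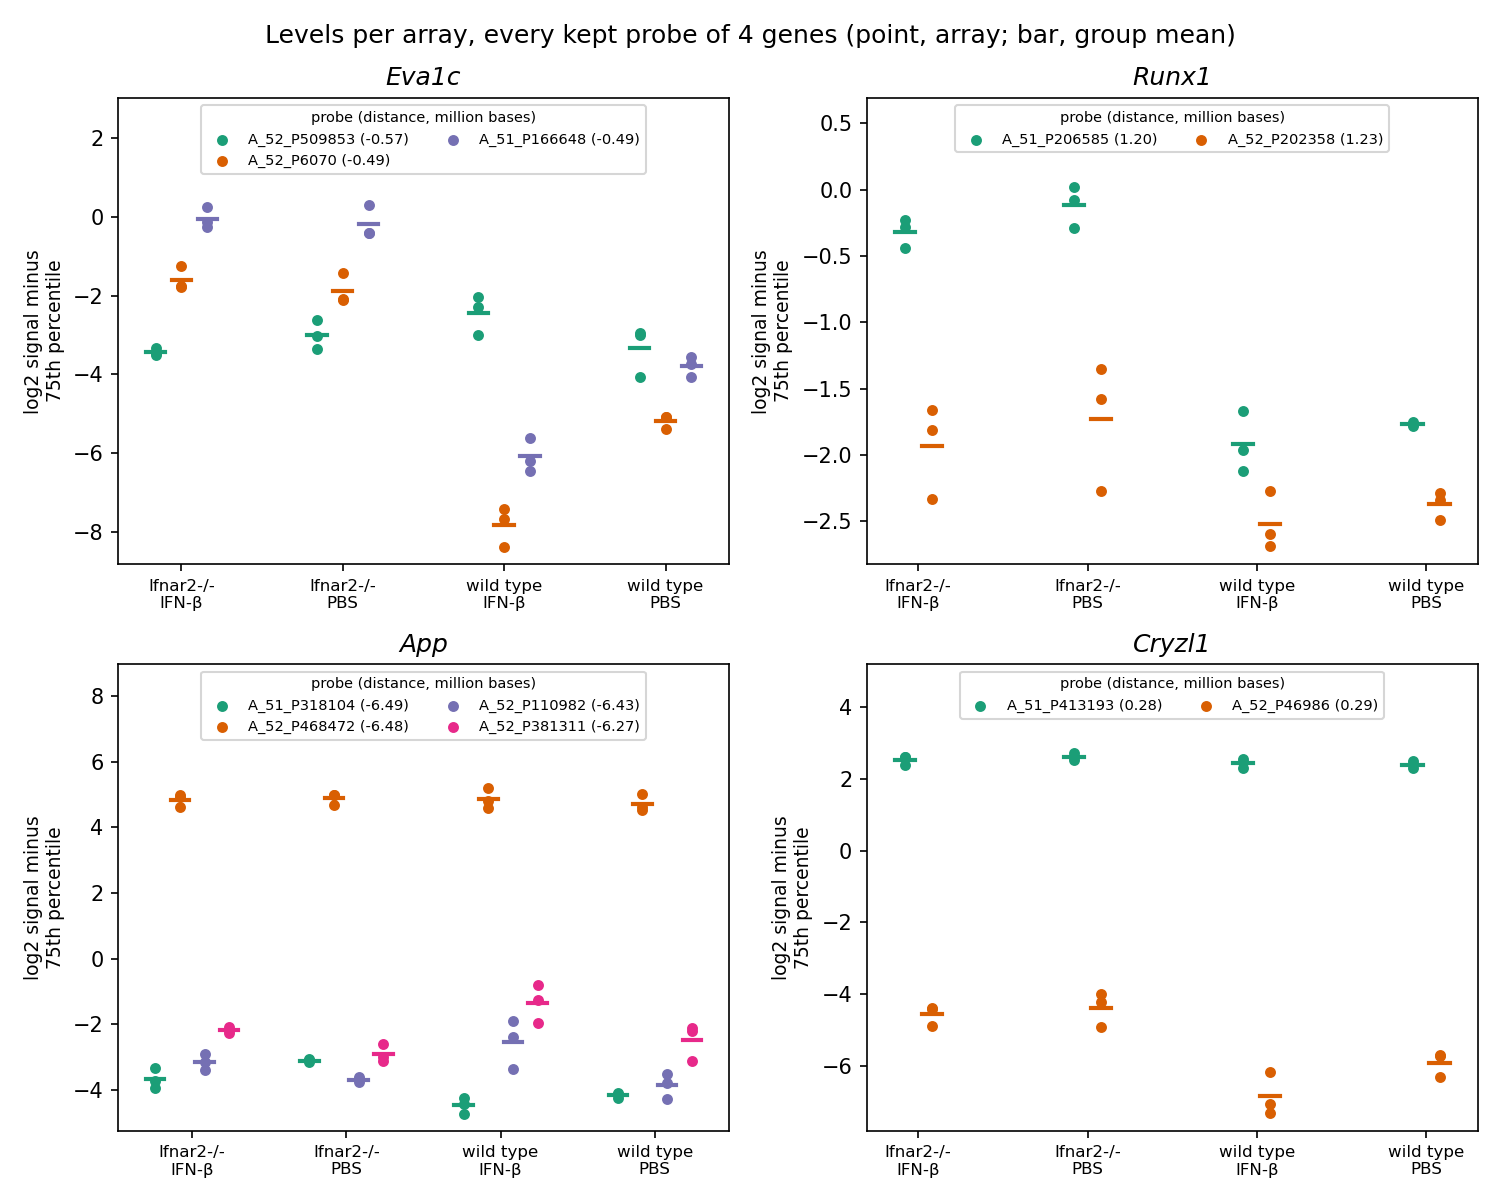
Levels of every kept probe of Eva1c, Runx1, App and Cryzl1 on each array (log2 signal, 75th percentile of the array set to 0), with groups on the horizontal axis, points for arrays and bars for means of 3. In each gene at least 1 probe separates the Ifnar2-/- groups from the wild-type groups (Eva1c A_51_P166648 by 3.61 after PBS) and at least 1 other was not called after PBS.

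The count after PBS depended on single arrays and on the slide. Without wild-type PBS replicate 1 it was 4 probes (2.26% of all probes), without Ifnar2-/- PBS replicate 2 or replicate 3 it was 5 each (2.38% and 2.45% of all probes), without the 4 arrays of slide 3 it was 3 (1.42% of all probes), and with slide as a fixed block it was 1, when 0.209% of all probes were called. In that last fit Eva1c A_52_P6070 remained called (3.72, limma adjusted p = 0.0263), and Eva1c A_51_P166648 (3.30, limma adjusted p = 0.0644) and Runx1 A_51_P206585 (1.68, limma adjusted p = 0.0703) kept their size but not the call. The same fit moved Cryzl1 A_52_P46986 to 0.44 and AK046687 to 0.34. Under normexp background correction the split was 5 higher and 3 lower, when 4.45% of all probes were called and 53.6% of those were higher. There Eva1c was at 2.74 on A_51_P166648 and 1.75 on A_52_P6070, App at 0.50, Itsn1 at 0.30, Cryzl1 at 0.45 and AK046687 at 0.25.

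The calls after PBS showed no steady order with distance from Ifnar2. Within 0.5 Mb 3 of 31 probes were called (9.68%), between 0.5 and 1 Mb 1 of 18 (5.56%), between 1 and 2 Mb 3 of 14 (21.4%), between 2 and 4 Mb 0 of 35 by limma (8 at an unadjusted p under 0.05), and beyond 4 Mb 2 of 34 (5.88%). The bins from 0.5 to 1 and from 1 to 2 Mb hold few probes, and the 3 calls between 1 and 2 Mb are 2 probes of 6720475J19Rik and 1 of Runx1. Across the 132 probes, Spearman's rho between the size of the difference and the distance was 0.04 after PBS and -0.15 after IFN-β, a description over probes that share the same arrays and often a gene. Members at lower coordinates than Ifnar2 were called at 5 of 61 probes and those at higher coordinates at 4 of 71.

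**Figure D2:**
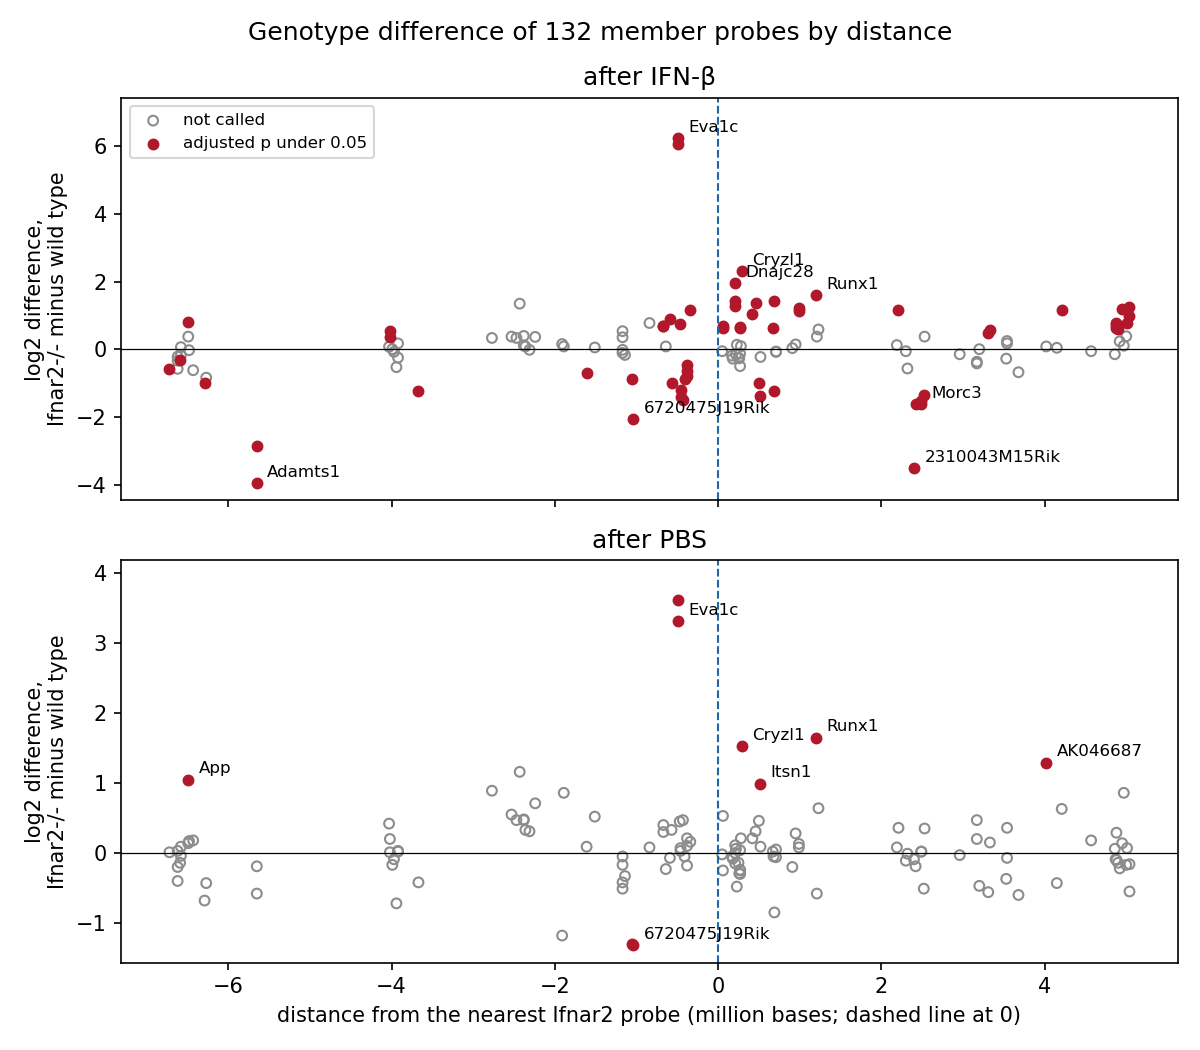
Genotype difference (Ifnar2-/- minus wild type, log2) of each of the 132 tested probes against its signed distance from the nearest Ifnar2 probe in Mb, after IFN-β above and after PBS below, with called probes filled. After PBS the 9 called probes lie between 6.49 Mb on the lower side (App) and 4.02 Mb on the higher side (AK046687), with most of their neighbours near 0.

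Close to Ifnar2, most genes showed no called difference after PBS. The nearest tested member, NAP101459-1, differed by -0.02 (SE 0.15). Tmem50b, a small membrane protein, differed by -0.05 on A_51_P510849 and -0.08 on A_52_P518030. Son, a splicing cofactor of nuclear speckles, ran from -0.30 to 0.04 over its 4 probes, Gart, an enzyme of purine synthesis, was at 0.06 and -0.48, and Donson, a replication protein, was at -0.25 and -0.24. Paxbp1 was at -0.18 and 0.10, Synj1, a phosphoinositide phosphatase that uncoats endocytic vesicles, at 0.07 to 0.47 over 3 probes, Dnajc28, a J-domain protein, at -0.15 to 0.11 over 3 probes, and Cfap298, a cilia assembly factor, at 0.45. The non-coding transcript A930006K02Rik was at -0.25 and 0.53, 4932438H23Rik at 0.16, AK044844 at -0.05 and the unnamed probe A_51_P305350 at 0.03. Within 0.5 Mb the called member probes after PBS belonged to Eva1c and Cryzl1 only, and Itsn1 A_51_P108645 lies just beyond, at 0.51 Mb. Of the receptor genes left out of the members, Il10rb was called lower on A_51_P406454 (-0.69, SE 0.14, limma adjusted p = 0.0223). Its other probe (0.13), Ifnar1 (0.20) and Ifngr2 (-0.22 and 0.09) were not called.

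After IFN-β, Ifnar2-/- cells differed from wild-type cells at 62 of the 132 member probes, 37 higher and 25 lower, or 47.0% beside 38.9% of all probes and 37.9% of the rest of chromosome 16. Near Ifnar2 the share was higher: 21 of 31 probes within 0.5 Mb (67.7%) and 11 of 18 between 0.5 and 1 Mb (61.1%), then 4 of 14 (28.6%), 9 of 35 (25.7%) and 17 of 34 (50%) in the bins farther out. The wild-type response to IFN-β, which shares the wild-type IFN-β arrays with that comparison, had 67.7%, 38.9%, 35.7%, 34.3% and 61.8% of probes called from the nearest to the farthest bin. With no scaling between arrays, where the median difference of all probes was 0.43 and not 0.05, the split after IFN-β was 56 higher and 16 lower, and under normexp it was 24 higher and 28 lower. Of all probes called, 79.9% and 42.2% were higher in those settings, beside 53.1% under the processing used throughout.

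**Figure D3:**
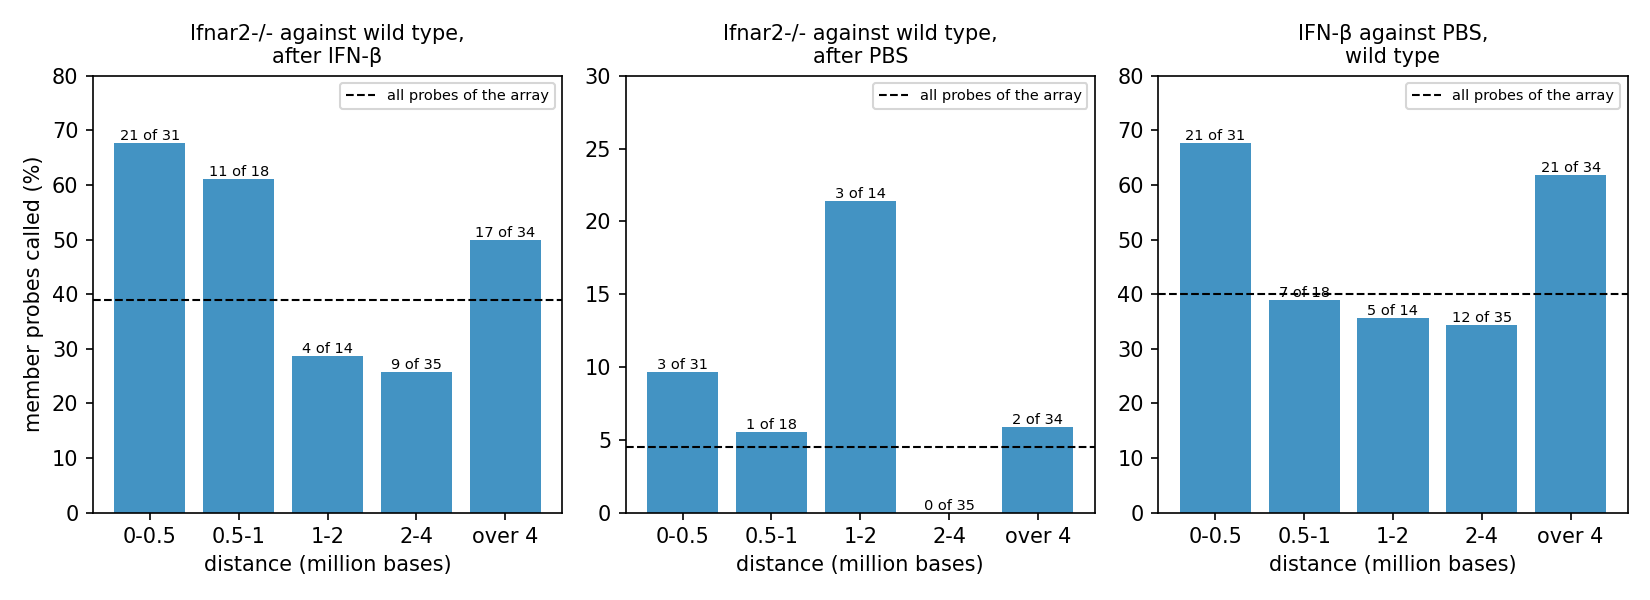
Percent of member probes called in 5 bins of distance from Ifnar2 for the genotype difference after IFN-β, the genotype difference after PBS and the IFN-β response of wild-type cells, with the count above each bar and the percent over all probes of the array as a dashed line (38.9%, 4.53% and 40.0%). The nearest bin is above the line in each, at 67.7%, 9.68% and 67.7%, and after PBS the bin from 2 to 4 Mb is at 0.

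Eva1c was again the most different gene. On A_51_P166648 the Ifnar2-/- IFN-β samples read -0.13, -0.25 and 0.24, against -6.19, -6.45 and -5.61 in wild-type IFN-β samples (6.04, SE 0.26, limma adjusted p = 4.30e-08), where 1 of the 3 wild-type arrays measured it well above background. On A_52_P6070 no wild-type IFN-β array was well above background, and Ifnar2-/- cells were at least 23.1-fold higher (limma adjusted p = 4.44e-08), the bound being set by the lowest signals well above background on the wild-type arrays. Under normexp, which adds an offset to low signals, the differences after IFN-β were 3.46 on A_51_P166648 and 2.21 on A_52_P6070, the second below that bound. On A_52_P509853 the direction was the opposite: -3.45, -3.50 and -3.34 in Ifnar2-/- IFN-β cells, against -2.05, -2.99 and -2.29 in wild-type IFN-β cells (-0.99, SE 0.33, limma adjusted p = 0.0355). Probes of one gene thus disagreed in sign, as they also did for Itsn1.

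Of the 9 probes called after PBS, 7 were also called after IFN-β with the same sign, and 8 had the same sign. The group means compared came from different arrays, but both tests took each probe's spread from the same fit to all arrays. Ifnar2-/- arrays also lay on slides 2 and 3 in both treatments, so the repeated calls are not independent of each other. Over the whole array 72.1% of probes called after PBS were called again with the same sign and 88.8% had the same sign. Runx1 A_51_P206585 read -0.28, -0.23 and -0.44 in Ifnar2-/- IFN-β cells, against -1.96, -2.12 and -1.67 in wild-type IFN-β cells, and its difference of 1.60 (SE 0.14, limma adjusted p = 7.77e-06) was close to that after PBS. On slide 2, which held 1 Ifnar2-/- and 2 wild-type IFN-β arrays, Runx1 differed by 1.62, Eva1c A_51_P166648 by 5.90, App A_51_P318104 by 1.17 and 6720475J19Rik A_51_P299393 by -1.74. Cryzl1 A_52_P46986 was at least 2.97-fold higher in Ifnar2-/- IFN-β cells, against wild-type IFN-β cells in which no array measured it well above background. Under normexp its difference after IFN-β was 0.28 and not called (limma adjusted p = 0.0582), as was that of App A_51_P318104 (0.18, limma adjusted p = 0.290). AK046687 was at 0.09 after IFN-β (limma adjusted p = 0.850) and at -0.75 on slide 2. Itsn1 A_51_P108645, higher by 0.99 after PBS, turned round and was called lower after IFN-β (-1.36, SE 0.22, limma adjusted p = 0.000776).

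Averaged over both treatments, 55 member probes were called, 33 higher and 22 lower, which was 41.7% beside 36.7% of all probes. The genes whose Ifnar2-/- values lay on 1 side of the wild-type values in both treatments were led by Eva1c (4.82, SE 0.18), 6720475J19Rik (-1.69, SE 0.17) and Runx1 (1.63, SE 0.10). Cryzl1 A_52_P46986 was also called (limma adjusted p = 0.000117), but its mean has no exact size, since no wild-type IFN-β array measured it well above background, and Eva1c A_51_P166648 was well above background on 1 of those 3 arrays. App followed at 0.93 on A_51_P318104, while its probe A_52_P381311 was called in the opposite direction at -0.63 (SE 0.23, limma adjusted p = 0.0488). The ETS factor Erg was higher by 0.89 and the carbonyl reductase Cbr1 by 0.76. Bach1, a heme-regulated repressor, was lower by -0.82 and Dop1b, a protein of endosomal traffic, by -0.89. The cDNA AK089833 was lower by -1.04, with 1 of 3 Ifnar2-/- arrays of either treatment well above background, and Cfap298 and A930006K02Rik were higher by 0.60 and 0.58. With slide as a fixed block 9 probes were called, when 5.22% of all probes were.

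In wild-type cells IFN-β changed 66 of the 132 member probes, 31 higher and 35 lower, or 50% beside 40.0% of all probes. The wild-type PBS arrays all lay on slide 1 with wild-type IFN-β replicate 1, and wild-type IFN-β replicates 2 and 3 lay on slide 2. With slide as a fixed block 36 member probes were called, 13 higher and 23 lower, when 24.8% of all probes were. With no scaling between arrays the split was 18 higher and 43 lower, and under normexp it was 33 higher and 23 lower. Of all probes called, 31.7% and 51.5% were higher in those settings, beside 46.3% under the processing used throughout. The transcript 2310043M15Rik, 2.40 Mb from Ifnar2, read -2.61, -2.32 and -2.10 in wild-type IFN-β cells, against -5.11, -5.20 and -5.08 in wild-type PBS cells, a rise of 2.79 (SE 0.29, limma adjusted p = 3.12e-05) without overlap. Morc3, a nuclear ATPase of chromatin, read 3.36, 3.47 and 3.37 in wild-type IFN-β cells, against 1.78, 1.75 and 1.91 in wild-type PBS cells, on A_51_P160907 (1.59, SE 0.11, limma adjusted p = 1.95e-06), and its second probe gave 1.51. Synj1 rose by 1.90 on A_51_P484679 (SE 0.24, limma adjusted p = 0.000122), 1.43 on A_52_P34012 and 1.32 on A_52_P97300. The secreted protease Adamts1 is among the 5 probes kept through a single group: A_52_P213932 read -4.76, -4.88 and -5.07 in wild-type IFN-β cells, against -5.98, -6.47 and -8.79 in wild-type PBS cells, where 1 of 3 arrays measured it well above background.

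Other genes were lower after IFN-β. Dnajc28 read -5.58, -5.75 and -4.89 in wild-type IFN-β cells, against -2.90, -2.70 and -2.77 in wild-type PBS cells, on A_51_P464588 (-2.62, SE 0.36, limma adjusted p = 0.000243), and its other probes gave -2.59 and -2.01. Cbr1 fell by 1.33 (SE 0.15), Get1, a receptor for the insertion of tail-anchored proteins into the endoplasmic reticulum, by 1.38 (SE 0.16) on A_52_P418602, and A930006K02Rik by 1.30 (SE 0.24) on A_52_P314299. Sod1, the cytosolic superoxide dismutase, fell by 1.42 (SE 0.20, limma adjusted p = 0.000284) on A_51_P425205, while its probe A_51_P367381 was at -0.33 (limma adjusted p = 0.114). Eva1c fell by at least 1.93-fold on A_52_P6070 (limma adjusted p = 3.05e-05) and by 2.29 on the log2 scale on A_51_P166648.

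Itsn1 moved in opposite directions along its length in wild-type cells. The probes at lower coordinates fell, A_52_P396498 by 0.72 (SE 0.25, limma adjusted p = 0.0376) and A_52_P342880 by 0.87 (SE 0.17, limma adjusted p = 0.00256). The probes at higher coordinates rose, A_52_P438188 by 1.51 (SE 0.21, limma adjusted p = 0.000234) and A_51_P108645 by 2.64 (SE 0.22, limma adjusted p = 7.82e-06). The gene lies on the + strand in the array files, so the rising probes are the ones nearer its 3' end. On A_51_P108645 the values were -2.59, -2.92 and -1.88 in wild-type IFN-β cells, against -5.0, -5.06 and -5.24 in wild-type PBS cells, with no overlap.

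**Figure D4:**
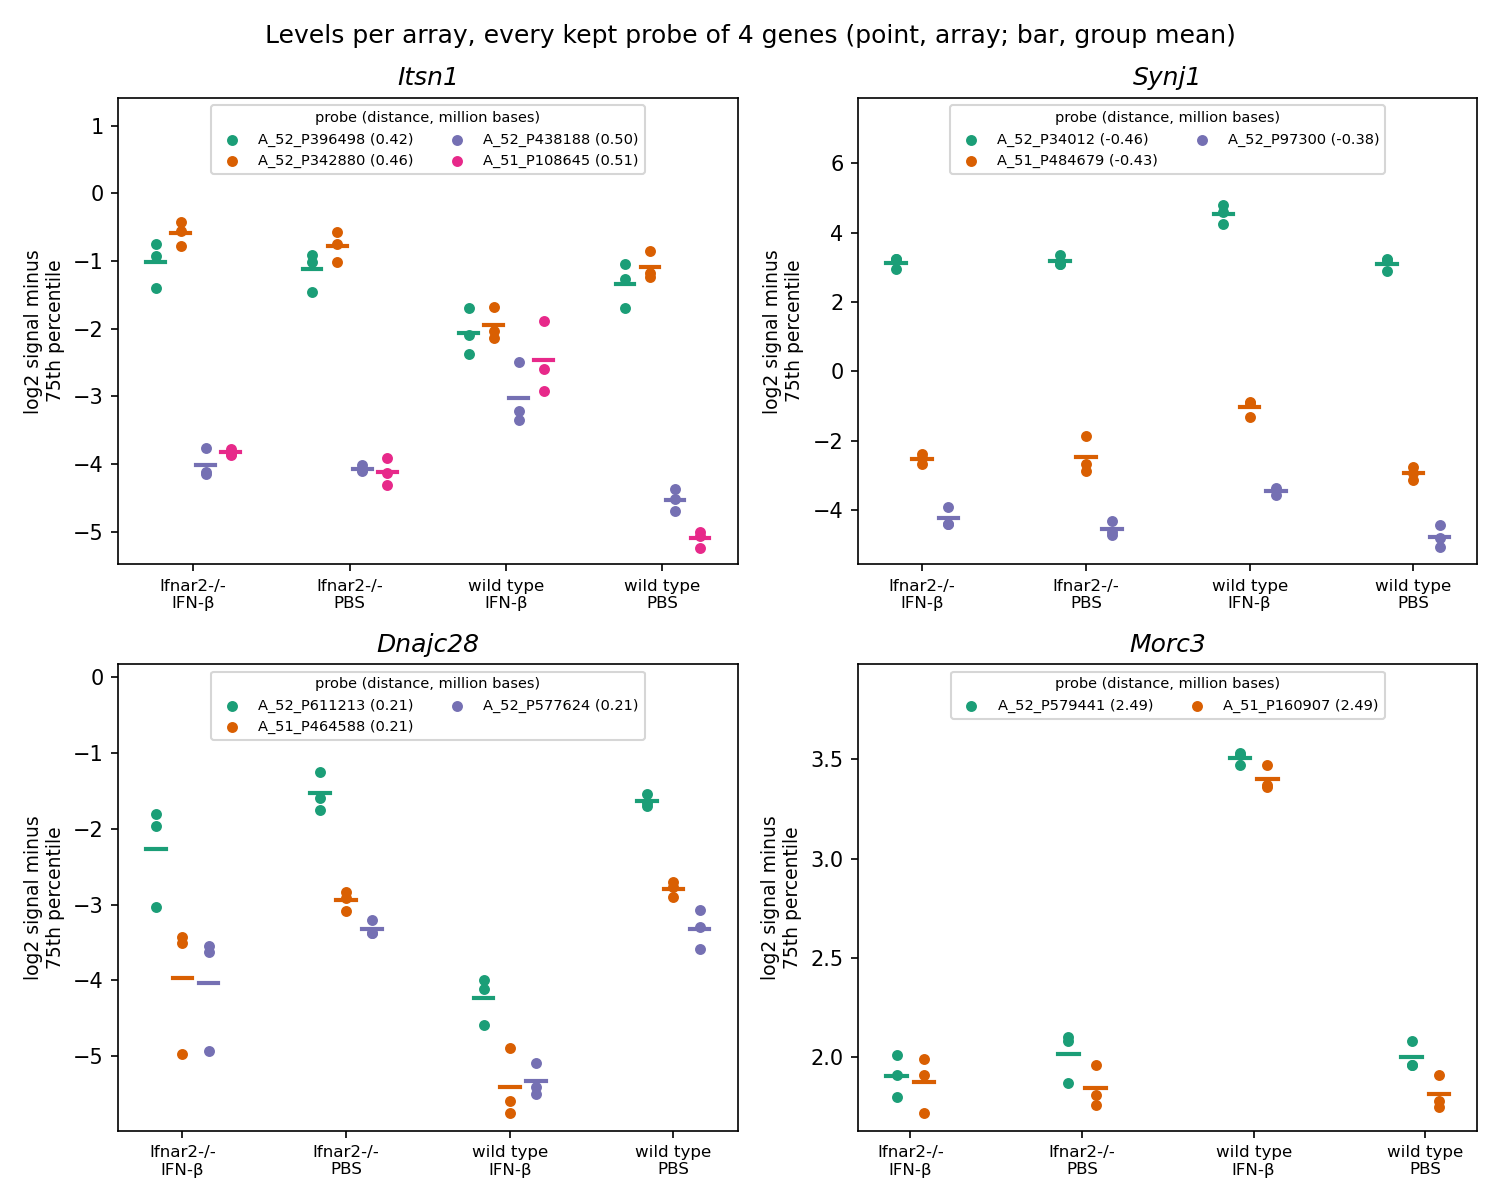
Levels of every kept probe of Itsn1, Synj1, Dnajc28 and Morc3 on each array (log2 signal, 75th percentile of the array set to 0), with groups on the horizontal axis, points for arrays and bars for means of 3. In wild-type cells 2 Itsn1 probes are higher and 2 lower after IFN-β, all Synj1 and Morc3 probes are higher and all Dnajc28 probes lower, while the Ifnar2-/- groups lie closer to each other.

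In Ifnar2-/- cells 1 of the 132 member probes was called after IFN-β by limma, 0.758% beside 1.11% of all probes, and 24 had an unadjusted p under 0.05. That probe was Ets2, an ETS transcription factor, at 2.82, 3.13 and 2.70 in Ifnar2-/- IFN-β cells, against 1.53, 1.54 and 1.60 in Ifnar2-/- PBS cells (1.33, SE 0.13, limma adjusted p = 0.00132). The rise was 1.29 on slide 2 and 1.35 on slide 3. Wild-type cells read 2.87, 2.90 and 3.02 after IFN-β, against 1.26, 1.40 and 1.46 after PBS (1.56, SE 0.13, limma adjusted p = 5.44e-06), and the 2 responses differed by -0.23 (SE 0.18, limma adjusted p = 0.442). Without the 4 arrays of slide 3, limma called 0 member probes (8 at an unadjusted p under 0.05) and 0.0541% of all probes.

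The responses differed between the genotypes at 29 member probes, 17 higher and 12 lower in Ifnar2-/- cells, or 22% beside 17.7% of all probes. With no scaling the split was 28 and 9, and under normexp it was 9 and 14. Of all probes called, 71.6% and 39.4% were higher in those settings, beside 47.7% under the processing used throughout. The largest differences, Ifnar2-/- minus wild type, were -3.40 for 2310043M15Rik (SE 0.41, limma adjusted p = 0.000246) and -2.35 for Itsn1 A_51_P108645 (SE 0.32, limma adjusted p = 0.000556). Eva1c A_52_P6070 was called higher (limma adjusted p = 0.000471), but with no wild-type IFN-β array well above background its fitted 2.91 is no exact size and has no place in that order. Synj1 followed at -1.96, Dnajc28 at 1.86 and Morc3 at -1.62. For 2310043M15Rik, 1 of 3 Ifnar2-/- IFN-β arrays and 2 of 3 Ifnar2-/- PBS arrays measured it well above background.

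**Figure D5:**
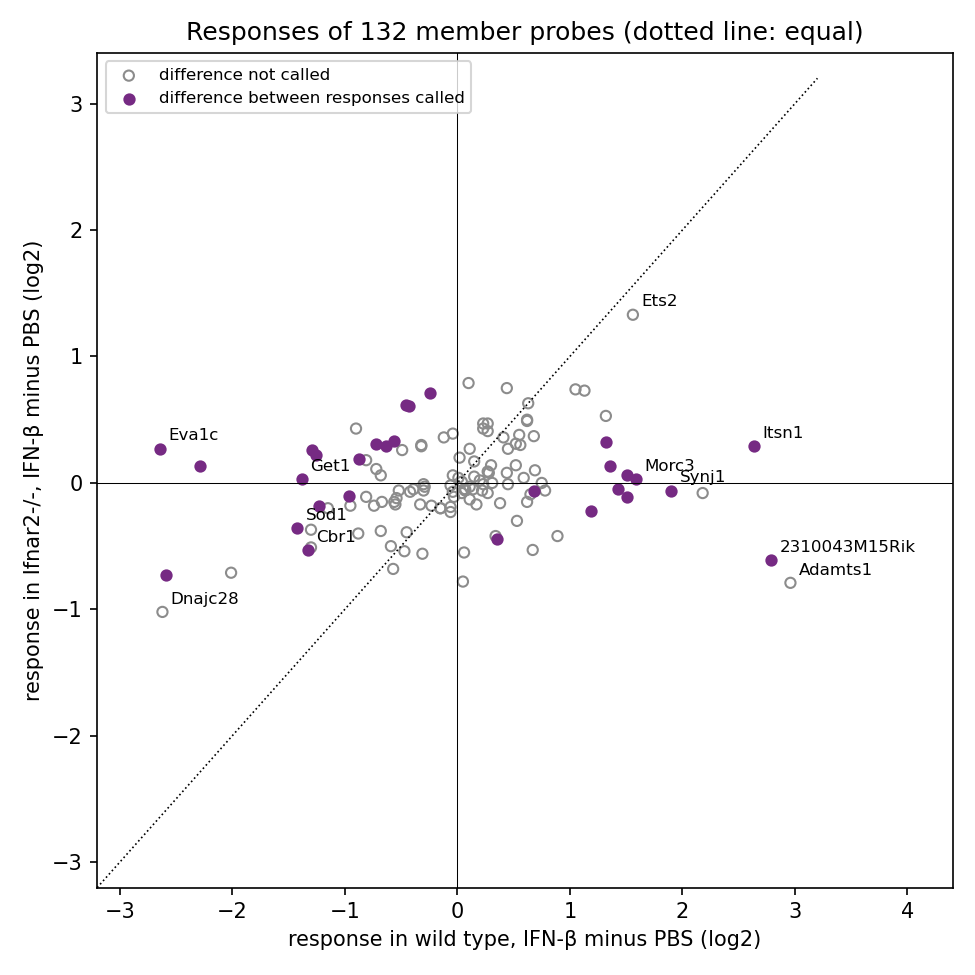
Response to IFN-β (IFN-β minus PBS, log2) of the 132 tested probes in Ifnar2-/- cells, on the vertical axis, and in wild-type cells, on the horizontal axis, with filled points where the difference between the responses was called and a dotted line of equal responses. Most labelled genes spread along the horizontal axis near 0 on the vertical one, and Ets2 lies near the dotted line at 1.33 and 1.56.

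Among genes grouped by role, each by its brightest kept probe, transcription factors had Runx1 called higher after PBS of 6 tested. After IFN-β, Runx1 and Erg were higher (1.60 and 1.15) and Bach1 lower (-1.21), while Gabpa was at 0.07. None of 11 chromatin and RNA-binding genes, 8 folding and ubiquitin genes, 11 mitochondrial and metabolic genes, 7 signalling and traffic genes or 4 channels and transporters was called after PBS by limma on that probe, and 6 of these 41 had an unadjusted p under 0.05. Over the 18274 genes of the array, by the same choice of probe, 507 were called higher and 367 lower between the genotypes after PBS. By that choice 3228 were called higher and 4003 lower in the wild-type response, and 3903 higher and 3159 lower between the genotypes after IFN-β. In a separate fit of 1 probe per gene, 39.4% and 38.5% of all genes were called in these comparisons. The 11 chromatin genes had 3 higher and 3 lower in the wild-type response, among them Paxbp1 at 0.68, the nucleosome-binding Hmgn1 at -0.74 and the centromere protein Mis18a at -0.68. The folding and ubiquitin genes had 5 of 8 lower and 2 higher in the wild-type response, with the ubiquitin ligase Ttc3 at -1.23, Get1 at -1.38 and the chaperonin subunit Cct8 at 0.56, and 5 of 8 higher in Ifnar2-/- than in wild-type cells after IFN-β. Both counts of 5 include Vps26c, named for vacuolar protein sorting and not for folding or ubiquitin, at -0.56 and 0.57.

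The 11 mitochondrial and metabolic genes had 3 higher and 3 lower in the wild-type response, beside 39.4% of all genes called in the fit of 1 probe per gene. Those called included the ribosomal proteins Mrpl39 at 0.69 and Mrps6 at 0.62 and the GPI-anchor enzyme Pigp at -0.88. Of 7 signalling and traffic genes, 5 were called between the genotypes after IFN-β, beside 38.5% of all genes in the fit of 1 probe per gene. They were the calcineurin inhibitor Rcan1 at 1.13, Itsn1 at 1.37 on A_52_P342880, Synj1 at -1.41, Dop1b at -1.60 and the Rac activator Tiam1 at -0.68. Of the other Itsn1 probes, A_52_P396498 was called higher (1.04), and A_51_P108645 and A_52_P438188 were called lower (-1.36 and -0.99). Among channels and transporters, the inositol transporter Slc5a3 was higher at 0.64, and the potassium channels Kcnj6 and Kcnj15 were at -0.67 and 0.05 without a call. Among 5 protease, adhesion and junction genes Eva1c was higher after IFN-β. Adamts1 A_52_P489295, kept through the wild-type IFN-β group alone, read -7.06, -5.27 and -5.55 in Ifnar2-/- IFN-β cells, against -1.73, -2.06 and -2.28 in wild-type IFN-β cells, while Jam2 at -0.57 and Cldn14 at 0.38 were not called. The median over the folding and ubiquitin genes, Vps26c included, was 0.43 between the genotypes after IFN-β, beside 0.08 over all genes by the same choice of probe.

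After IFN-β the cell markers differed too. Monocyte markers summed to 168 to 197 in Ifnar2-/- IFN-β cells, against 439 to 487 in wild-type IFN-β cells, with 3 of 5 called lower. The other monocyte markers, Ccr2 (-0.06) and Fn1 (-0.20), were not called. Of 11 macrophage markers 3 were called higher and 2 lower in Ifnar2-/- IFN-β cells, and of 8 B cell markers 3 higher and 1 lower. T and NK cell markers summed to 4.68 to 6.07 in Ifnar2-/- IFN-β cells, against 1.64 to 2.15 in wild-type IFN-β cells, with 7 of 8 called higher. All 7 mast cell markers were higher in Ifnar2-/- IFN-β cells, with sums of 285 to 327, against 173 to 198 in wild-type IFN-β cells. Neutrophil markers summed to 19.2 to 196 and 14.6 to 21.5 in these groups, with S100a8 called higher of 6. Of 8 mesothelial and stromal markers 1 was called higher and 3 lower, and of 2 eosinophil markers Ccr3 was called lower. Erythroid markers, of which 0 were called by limma, summed to 18.4 to 69.5 and 19.8 to 226. The part of these markers' cell types in the member differences was not tested.

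At the borders of the segment, the last members inside were Mrpl39 and Jam2 at the lower end, which differed by 0.01 and -0.40 after PBS and by -0.57 each after IFN-β, and Get1 at the upper end, at -0.16 after PBS and 1.25 after IFN-β on A_52_P418602. The nearest tested probes below the segment were some way off, Chodl at 78.9 Mb and 1700066C05Rik at 80 Mb, and differed by 0.27 and -0.10 after PBS. Just above it, B3galt5 at 96.7 Mb and AK033817 at 96.8 Mb differed by 1.00 and 0.29 after PBS. B3galt5 differed by 3.53 after IFN-β and lies beyond the chosen limit.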

How the data were processed

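RNA of 12 samples was measured on one-colour Agilent arrays. Per the file headers, the authors' scanner files were made with Agilent Feature Extraction 9.5.3.1, and the deposited processed signal is a background-subtracted intensity that was not normalized between arrays; 0 values of the deposited value table differed from it. Here log2 of it minus each array's 75th percentile was used, without control and outlier spots, averaging spots of a probe. A probe was kept if 1 or more groups had it well above background throughout and at least 6 arrays gave it a value. limma 3.58.1 (R 4.3.3) fitted 4 group means over 12 arrays and adjusted p-values over 27715 probes. Precision is limited by having 3 arrays a group.

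Of 208 member probes, 111 took their symbol from a RefSeq accession (GRCm38.p6 table, names only), 44 by symbol, 22 by an older symbol, and 31 kept the file's name. Members and lists were chosen with earlier results of these data known. Named were the largest called, non-overlapping differences per comparison, every gene within 500000 bases of Ifnar2, genes with probes called in opposite directions, and examples of each role list. Alternatives covered background correction, scaling, filters, outlier spots, slide, replicate number, probe choice, the prior and leaving out arrays. Checks ran on simulated data.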

Additional observations from a re-analysis of the deposited data

Results flagged for a closer look

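The response to IFN-β differed between the genotypes by limma's interaction test for 6 named genes, given as the response in Ifnar2-/- cells minus that in wild-type cells on the log2 scale. The values were -3.40 for 2310043M15Rik, 2.91 for Eva1c on A_52_P6070, -2.35 for Itsn1 on A_51_P108645, -1.96 for Synj1 on A_51_P484679, 1.86 for Dnajc28 on A_52_P611213 and -1.62 for Morc3 on A_52_P579441. For Eva1c no wild-type IFN-β array measured that probe well above background, so 2.91 is no exact size and has no place in that order. These 6 were taken by the naming rule from 29 called member probes, with 3 arrays in each of the 4 groups.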

How the results depend on the processing

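The counts of called member probes moved most with the slide and with the probes counted. With slide as a fixed block the counts were 1 for the genotype after PBS, 37 for the genotype after IFN-β, 9 for the genotype over both treatments, 36 for the response in wild type and 18 for the difference between responses. Of all probes, 0.209%, 23.8%, 5.22%, 24.8% and 10.7% were called there, in the same order. Without the 4 arrays of slide 3 they were 3, 39 and 25 for the genotype comparisons, 0 for the response in Ifnar2-/- by limma (8 at an unadjusted p under 0.05) and 13 for the difference between responses. The shares over all probes were then 1.42%, 24.8%, 18.1%, 0.0541% and 7.85%. With 1 probe per gene (79 genes) they were 4, 31 and 31 for the genotype comparisons, 37 for the response in wild type and 15 for the difference between responses. Fewer probes are tested there, and 4.88%, 38.5%, 36.9%, 39.4% and 17.8% of all genes were called. With only probes well above background on all 12 arrays (115 members), they were 5 for the genotype after PBS, where both Eva1c probes and Cryzl1 A_52_P46986 are not tested, and 2 for the response in Ifnar2-/-, which was also 2 with an intensity trend and robust prior. Over all probes tested these shares were 4.74% and 1.69%, and 1.81% with the trend and prior. Leaving out 1 array at a time gave 4 to 11 for the genotype after PBS, 45 to 60 after IFN-β, 38 to 54 over both treatments, 47 to 69 for the response in wild type, 1 to 4 in Ifnar2-/- (4 without Ifnar2-/- IFN-β replicate 2) and 20 to 35 for the difference between responses. Shares over all probes ran from 2.26% to 6.53%, 29.7% to 39.6% and 28.7% to 38.8% for the genotype comparisons. For the responses and their difference they ran from 32.1% to 44.3%, 0.159% to 1.46% and 13.1% to 21.3%. For named probes, 86 values under single alternatives lost their call and 1 gained one, 1870 kept their side of the threshold, and 0 turned round. The cause of these changes was not tested, beyond the smaller numbers of probes and arrays named. Replicate numbers did not pair the arrays: same-numbered arrays had correlated deviations over 0.1 in 4 of 18 pairs (-0.13 to 0.49), and 5 of 12 arrays matched best with their own number. With the replicate block the counts were 11, 62 and 51 for the genotype comparisons, 63 and 1 for the responses in wild type and Ifnar2-/-, and 26 for their difference. All probes had 5.3%, 38.6%, 36.9%, 38.8%, 0.704% and 16.3% called in that fit. Spot signals near background limit Eva1c, Cryzl1 A_52_P46986, AK046687 and the Adamts1 probes, among others.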
